A study of Mus musculus with 12 samples.

Results

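The BCL2 family decides whether the outer membrane of the mitochondrion stays closed, and 10 of its genes were followed here in induced regulatory T cells and in effector T cells. The genes were taken by name: Bcl2, Mcl1 and Bcl2l1 of the survival branch, the pore formers Bax and Bak1, and the BH3-only death genes Bcl2l11, Bid, Pmaip1, Bbc3 and Bmf. A gene was measured where the platform annotation gave a transcript cluster (the set of array probes for a gene) that symbol and no other, and the brightest such cluster stood for it. By that rule 9 of the 10 genes were measured, among 22180 genes in all, and Bax was not analysed here. The 12 GeneChip arrays held T cells of C57BL6 mice with a GFP reporter of Foxp3, the transcription factor that defines regulatory T cells, stimulated by CD11c dendritic cells of the BALB/c strain, so that the response was against foreign tissue antigens. Each well held 200000 T cells and 20000 dendritic cells, and all wells received IL-2 at 5 ng/mL. The CD8 control and CD4 control groups had IL-2 alone and were sorted as Foxp3-negative. The CD8 Foxp3-positive and CD4 Foxp3-positive groups had in addition TGF-β (5 ng/mL) plus 40 nM retinoic acid and were sorted as GFP-positive. Culture lasted 4 days for CD8 and 5 days for CD4 cells, and each of the 4 groups had 3 arrays, replicates A to C.

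In this family the survival proteins bind and hold the death proteins. BCL2, MCL1 and BCL-XL (from Bcl2l1) keep BAX and BAK1 from forming pores, while the BH3-only proteins occupy the survival proteins or activate BAX and BAK1 directly. Once pores form, cytochrome c leaves the mitochondrion and APAF1 assembles the complex that starts the caspases. In T cells BIM (from Bcl2l11) is known for removing activated cells when cytokine is withdrawn, and regulatory T cells are known to depend on MCL1.

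Values are log2 expression levels as the authors deposited them, given as mean ± SD of each group's 3 arrays. Differences are log2 differences with the standard error (SE) of a limma model of all 12 arrays, and adjusted p-values (Benjamini-Hochberg, across the 22180 genes) were held to a threshold of 0.05. The array signal of different genes was not compared, since each cluster has its own probes. TGF-β with retinoic acid came only with the sort for Foxp3, so the parts of treatment and sort cannot be told apart, and neither can those of cell type and culture time between CD8 and CD4 cells. A level is an average over sorted cells, in which fewer cells of a type and less RNA per cell cannot be told apart. The labels do not say whether replicates A to C were separate cultures, so the p-values reflect the spread among these samples alone, and that spread may be technical.

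Foxp3 levels went with the labels. Foxp3 stood at 5.66 ± 0.59 and 5.76 ± 0.29 in the CD8 and CD4 controls and at 12.48 ± 0.05 and 12.44 ± 0.05 in the Foxp3-positive groups. Array levels correlated at r = 0.992 to 0.994 within groups and at 0.962 to 0.991 between groups, across genes, which are not independent replicates. The coreceptor gene Cd4 was at 5.17 to 5.36 in CD8 and at 11.92 to 12.31 in CD4 groups, and Cd8b1 at 11.86 to 11.97 in CD8 groups. Within CD4 cells the group means of the CD8 coreceptor genes lay apart in opposite directions, with Cd8b1 at 7.72 ± 0.26 in controls and 6.17 ± 0.24 in Foxp3-positive cells, and Cd8a at 6.51 ± 0.72 and 7.54 ± 0.55. Cd3e, of the T cell receptor complex, lay between 12.40 and 12.93 in the 4 groups. Markers of other cells were not all low, since 8 to 10 of the 17 dendritic cell markers measured, 2 to 3 of 11 B cell markers and 2 to 4 of 13 macrophage and monocyte markers lay above 5.60, the median of all genes' means, depending on the group. Among defining markers, the dendritic cell factor Zbtb46 was at 5.27 to 5.49 and the B cell gene Ms4a1 at 3.57 to 3.82. Itgax (CD11c), the marker used to sort the dendritic cells, was at 6.53 ± 0.12 in CD8 controls and at 4.77 to 4.95 in the other groups. In the CD8 comparison 3 dendritic cell markers passed higher and 3 lower, 3 B cell markers higher and 0 lower, and 3 macrophage and monocyte markers higher and 1 lower. In the CD4 comparison these counts were 3 and 2, 2 and 2, and 1 and 1. Beside them, 20% of all genes passed for CD8 cells (9.39% higher, 10.6% lower). For CD4 cells that share was 22.5% (12.1% higher, 10.4% lower). The mean level of the dendritic cell list was 6.29 to 6.36 in CD8 control, 6.21 to 6.41 in CD8 Foxp3-positive, 6.24 to 6.28 in CD4 control and 6.14 to 6.44 in CD4 Foxp3-positive arrays. That of the B cell list was 5.48 to 5.65, 5.70 to 5.81, 5.43 to 5.53 and 5.61 to 5.70, and that of the macrophage and monocyte list 5.12 to 5.25, 5.21 to 5.54, 5.15 to 5.32 and 5.11 to 5.31, in the same order of groups. The mean of the B cell list was thus higher in Foxp3-positive than in control arrays with no overlap in either lineage. The median level of its genes ran the other way. It was 5.05 in CD8 control and 4.99 in CD8 Foxp3-positive cells, and 5.09 and 4.97 in the CD4 groups. The part of RNA from other cells in the results below was not tested.

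The first question was how the family differed between Foxp3-positive and control cells of the same lineage. In CD8 cells Pmaip1, Mcl1 and Bcl2 rose and Bid and Bcl2l1 fell, by 1.27-fold to 1.61-fold. In CD4 cells Pmaip1 rose and Bak1, Bcl2l1 and Bcl2l11 fell, by 1.51-fold to 1.85-fold. The pair that passed in both lineages moved the same way in each, with Pmaip1 higher and Bcl2l1 lower in Foxp3-positive cells. Bbc3 and Bmf passed in neither lineage. In all, 5 of the 9 genes passed in CD8 cells, where 20% of all genes did (9.39% higher and 10.6% lower). In CD4 cells 4 of 9 passed, where 22.5% of all genes did (12.1% higher and 10.4% lower). The members' mean levels ran from 5.86 (Bbc3) to 11.67 (Bcl2), above the median of all genes' means (5.60). The shares are over genes of any level, and the share among genes of like level was not tested. Changes of the members ran both ways, with a median of -0.014 in CD8 cells and -0.13 in CD4 cells, beside medians of -0.018 and 0.0034 over all genes. The arrays of the groups did not overlap for 7 of the 9 genes in CD8 cells (33.5% of all genes) and for 5 in CD4 cells (37.8% of all genes).

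**Figure D1:**
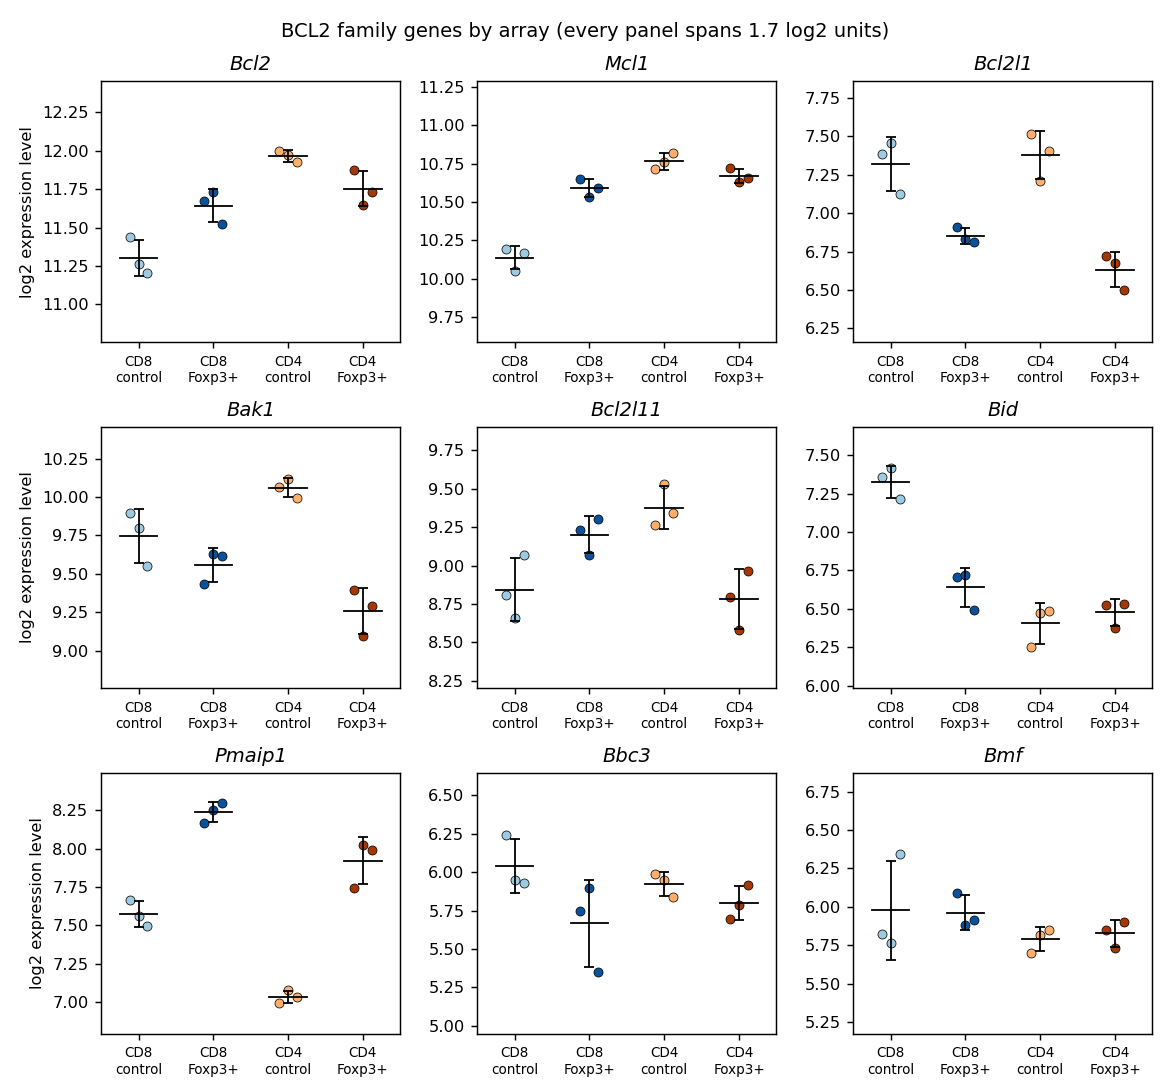
Log2 expression level (vertical axis) of the 9 measured BCL2 family genes in each of the 12 arrays, by group; points are arrays, horizontal lines are group means and bars are SD (n = 3). Mcl1 and Bcl2 are lowest in CD8 controls, Bid is highest there, and Pmaip1 is higher in both Foxp3-positive groups than in their controls.

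Among the survival genes, Bcl2 and Mcl1 were lowest in CD8 controls. Bcl2, the founding member that protects resting lymphocytes, had levels of 11.44, 11.26 and 11.21 in CD8 control replicates A, B and C. The CD8 Foxp3-positive arrays stood at 11.67, 11.74 and 11.52. All of these lay above the CD8 control arrays, and Bcl2 rose by 0.34 ± 0.10 (SE; 1.27-fold, adjusted p = 0.0230). In CD4 cells the order was the other way, with controls at 12.00, 11.97 and 11.93 and Foxp3-positive arrays at 11.88, 11.65 and 11.73. These CD4 groups did not overlap either, but the difference of -0.21 ± 0.10 did not pass (adjusted p = 0.138, 95% interval -0.42 to -0.0063). The groups ran from CD4 control through CD4 Foxp3-positive and CD8 Foxp3-positive, which overlapped each other, to CD8 control. The Bcl2 call in CD8 cells was lost without CD8 control replicate B or C, or without CD8 Foxp3-positive replicate A or B (adjusted p = 0.0715 to 0.0917), and with only the CD8 arrays in the model (adjusted p = 0.0619). The CD4 difference passed with trended robust moderation of the variance (adjusted p = 0.0476) and with the mean of all Bcl2 clusters (adjusted p = 0.0158).

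Mcl1 encodes the short-lived survival protein that holds BIM and BAK1. Its level was 10.19, 10.05 and 10.17 in CD8 controls and 10.65, 10.53 and 10.59 in CD8 Foxp3-positive cells. The 2 sets were apart by more than their spread, and Mcl1 rose by 0.45 ± 0.08 (1.37-fold, adjusted p = 0.00111). CD4 controls had 10.72, 10.76 and 10.82 and CD4 Foxp3-positive cells 10.72, 10.63 and 10.66. These overlapped, at a difference of -0.09 ± 0.08 (adjusted p = 0.459, 95% interval -0.27 to 0.078). The 3 groups other than CD8 control overlapped from neighbour to neighbour in the order of their means, and the CD8 controls stood below all of them.

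Bcl2 and Mcl1 each had a second, dimmer cluster with the same symbol. The dimmer Bcl2 cluster differed by 0.36 in CD8 cells (limma adjusted p = 0.0566 over all clusters) and by -0.49 in CD4 cells (adjusted p = 0.00935). The dimmer Mcl1 cluster differed by 0.55 in CD8 cells (adjusted p = 0.00855) and by 0.070 in CD4 cells (adjusted p = 0.772). The clusters of each gene thus had the same sign in CD8 cells, where that of Bcl2 missed the threshold. In CD4 cells the Bcl2 clusters fell on different sides of the threshold with the same sign, and the Mcl1 clusters differed in sign with neither past it.

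Bcl2l1, whose product BCL-XL is induced when T cells are activated, fell in both lineages. CD8 controls had 7.38, 7.45 and 7.12 and CD8 Foxp3-positive cells 6.91, 6.83 and 6.82. No array overlapped, and Bcl2l1 fell by 0.47 on the log2 scale (SE 0.11, 1.38-fold, adjusted p = 0.00876). CD4 controls had 7.52, 7.21 and 7.41 and CD4 Foxp3-positive cells 6.72, 6.67 and 6.50, again with no overlap. The CD4 change was -0.75 ± 0.11 (1.68-fold, adjusted p = 0.000269). The controls of both lineages overlapped, and the CD8 Foxp3-positive arrays lay between them and the CD4 Foxp3-positive arrays. The cluster does not tell the long transcript from the short one, whose product promotes death.

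Of the pore formers, Bak1 could be read. Its protein sits in the mitochondrial membrane, held there by MCL1 and BCL-XL. CD4 controls had 10.07, 10.12 and 9.99 and CD4 Foxp3-positive cells 9.39, 9.09 and 9.29. The groups were far apart, and Bak1 fell by 0.80 on the log2 scale (SE 0.11, 1.74-fold, adjusted p = 0.000146). CD8 controls had 9.89, 9.80 and 9.55 and CD8 Foxp3-positive cells 9.43, 9.63 and 9.62, with overlap. The CD8 difference of -0.19 ± 0.11 did not pass (adjusted p = 0.295, 95% interval -0.43 to 0.051).

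**Figure D2:**
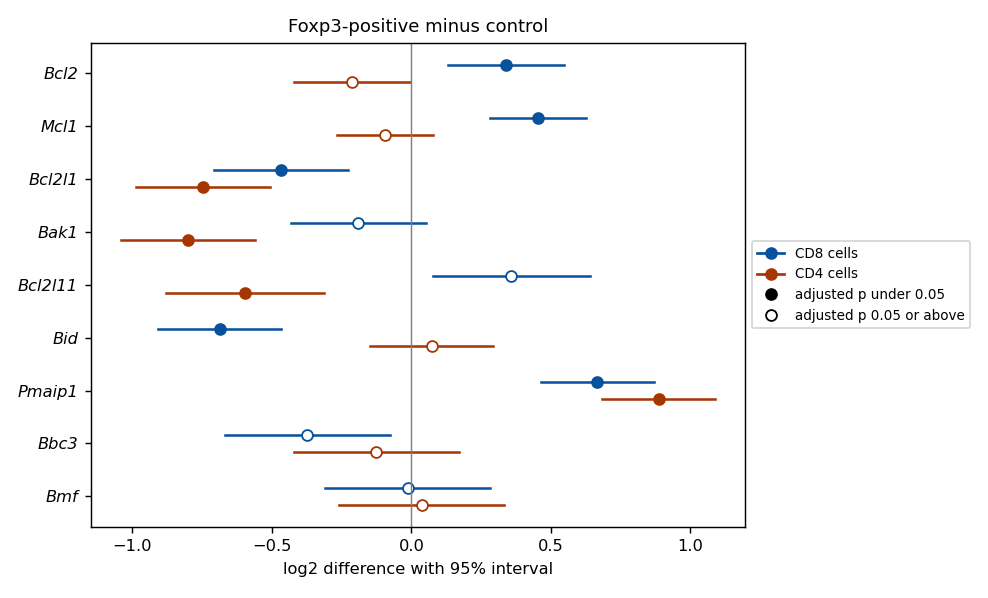
Log2 difference, Foxp3-positive minus control (horizontal axis), for the 9 genes in CD8 and CD4 cells; lines are 95% intervals of the limma model and filled points passed the adjusted threshold of 0.05. Pmaip1 lies above 0 and Bcl2l1 below 0 in both lineages, while Bcl2l11 lies at 0.36 in CD8 and at -0.60 in CD4 cells.

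The promoters of 4 of these genes are shown, Bcl2 and Mcl1 as genes that rose in CD8 cells and Bcl2l11 and Bak1 as genes that fell in CD4 cells. They are a choice, since Pmaip1 also rose in CD8 cells (0.67) and Bcl2l1 also fell in CD4 cells (-0.75). Sequences are from RefSeq (GRCm38.p6), the 250 bases before the annotated start, 5′ to 3′ on the gene's strand. Bcl2 is at chr1:106714291-106714540 on the minus strand, Mcl1 at chr3:95658471-95658720 on the plus strand, Bcl2l11 (the first of its annotated starts) at chr2:128125788-128126037 on the plus strand and Bak1 at chr17:27028628-27028877 on the minus strand. Capitals mark matches, on either strand, to 5 short motifs linked to the cytokines or to survival signalling.
Bcl2: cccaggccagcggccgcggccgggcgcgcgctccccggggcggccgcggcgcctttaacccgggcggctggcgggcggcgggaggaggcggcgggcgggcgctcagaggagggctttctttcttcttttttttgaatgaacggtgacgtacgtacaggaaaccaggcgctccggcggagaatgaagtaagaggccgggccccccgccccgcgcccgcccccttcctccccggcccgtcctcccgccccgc
Mcl1: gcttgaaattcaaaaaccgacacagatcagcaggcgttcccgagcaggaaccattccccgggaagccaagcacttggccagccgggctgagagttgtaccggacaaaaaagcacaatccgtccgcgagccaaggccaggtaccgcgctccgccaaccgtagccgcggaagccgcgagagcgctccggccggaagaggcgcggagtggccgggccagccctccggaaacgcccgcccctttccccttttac
Bcl2l11: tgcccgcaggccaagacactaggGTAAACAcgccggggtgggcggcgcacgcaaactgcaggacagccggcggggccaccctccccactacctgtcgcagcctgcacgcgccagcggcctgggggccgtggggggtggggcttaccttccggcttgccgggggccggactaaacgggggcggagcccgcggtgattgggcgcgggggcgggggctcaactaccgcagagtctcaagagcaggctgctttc
Bak1: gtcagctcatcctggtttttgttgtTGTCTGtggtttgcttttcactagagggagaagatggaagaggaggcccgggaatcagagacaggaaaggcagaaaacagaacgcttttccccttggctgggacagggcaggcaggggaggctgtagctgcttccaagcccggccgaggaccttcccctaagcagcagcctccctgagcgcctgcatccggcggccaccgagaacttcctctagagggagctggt

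The motifs searched were TTCNNNGAA for STAT factors, CAGACA for SMAD factors, GTAAACA for FOXO factors, AGGTCA for nuclear receptors and TGACGTCA for CREB factors. They occur in 7.02%, 17.1%, 3.17%, 14% and 1.55% of all 32851 promoter windows of that length. Bcl2l11 held the FOXO letters, 227 to 221 bases before the start, and the window of its other annotated start held none of the 5 motifs. Bak1 held the SMAD letters, 225 to 220 bases before the start, and the windows of Bcl2 and Mcl1 held none of the 5. All 4 windows were richer in G and C than the median window (52.4%), with 74.8% in Bcl2, 64.4% in Mcl1, 72% in Bcl2l11 and 58.4% in Bak1. Bcl2l1, which fell in both lineages and is not printed, held AGGTCA in 1 of its 3 windows, 104 to 99 bases before the start. Bbc3 and Bmf, which passed in neither lineage, held matches too. A window of Bbc3 held the SMAD letters (205 to 200 bases before the start) and the FOXO letters (167 to 161). Windows of Bmf held the SMAD letters (47 to 42 and 41 to 36) and AGGTCA (140 to 135). The window of Bid, which fell in CD8 cells, held none of the 5. A match of letters is a description and not a bound site.

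Of the BH3-only genes, Bcl2l11 fell in CD4 cells, and its difference in CD8 cells had the opposite sign. Its product BIM binds every survival protein of the family. CD4 controls had 9.26, 9.53 and 9.34 and CD4 Foxp3-positive cells 8.80, 8.58 and 8.97. All CD4 Foxp3-positive arrays were below the CD4 controls, and Bcl2l11 fell by 0.60 on the log2 scale (SE 0.13, 1.51-fold, adjusted p = 0.00462). CD8 controls had 8.81, 8.66 and 9.07 and CD8 Foxp3-positive cells 9.23, 9.07 and 9.31. The highest CD8 control and the lowest CD8 Foxp3-positive array nearly met. The CD8 difference of 0.36 ± 0.13 did not pass (adjusted p = 0.0753, 95% interval 0.076 to 0.64), but passed without CD8 control replicate C, with a filter on dim genes, with array weights and with trended robust moderation (adjusted p = 0.0246 to 0.0346). The cluster covers the gene as a whole, so the BIM isoforms were not told apart.

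Bid, which caspase 8 cleaves to carry a death receptor signal to the mitochondrion, stood high in 1 group. CD8 controls had 7.36, 7.42 and 7.21 and CD8 Foxp3-positive cells 6.71, 6.72 and 6.49. Bid fell by 0.69 on the log2 scale (SE 0.10, 1.61-fold, adjusted p = 0.000309). CD4 controls had 6.25, 6.48 and 6.49 and CD4 Foxp3-positive cells 6.52, 6.38 and 6.53. These overlapped, with a difference of 0.072 ± 0.10 (adjusted p = 0.681, 95% interval -0.15 to 0.29). Below the CD8 controls, the other groups overlapped from neighbour to neighbour.

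Pmaip1, whose product NOXA binds MCL1 and leads to its breakdown, had the smallest adjusted p of the family in both lineages. Levels in CD8 controls were 7.66, 7.56 and 7.49, and in CD8 Foxp3-positive cells 8.17, 8.25 and 8.29. Pmaip1 rose by 0.67 ± 0.09 (1.59-fold, adjusted p = 0.000197). CD4 controls had 7.00, 7.08 and 7.03 and CD4 Foxp3-positive cells 7.75, 8.03 and 7.99. The CD4 rise was 0.89 ± 0.09 (1.85-fold, adjusted p = 1.34e-05). All 4 groups were apart, in the order CD8 Foxp3-positive, CD4 Foxp3-positive, CD8 control, CD4 control. Pmaip1 was also the member whose group means spanned more than 1 log2 unit (1.20). The genes nearest to it over the 12 arrays, each gene centred on its own mean, were the protease gene Ctsc (cathepsin C), the farnesyltransferase subunit Fntb and the receptor chain Il10rb, at root mean square differences of 0.10, 0.11 and 0.13 log2 units.

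Bbc3 and Bmf had levels near the median gene, and no background level was available for them. Bbc3 encodes PUMA, a death protein that p53 induces. CD8 controls had 6.24, 5.95 and 5.93 and CD8 Foxp3-positive cells 5.75, 5.90 and 5.35. The arrays did not overlap, but the difference of -0.37 ± 0.14 did not pass (adjusted p = 0.0768, 95% interval -0.67 to -0.078). It passed without CD8 Foxp3-positive replicate B, with a filter on dim genes and with array weights (adjusted p = 0.0312 to 0.0460), and it was -0.22 without CD8 Foxp3-positive replicate C. In CD4 cells Bbc3 ranged from 5.84 to 5.99 in controls and from 5.69 to 5.92 in Foxp3-positive cells (difference -0.13 ± 0.14, adjusted p = 0.580). Bmf, whose product is held on the cytoskeleton until released, ranged from 5.70 to 6.35 over all arrays. The highest Bmf array was CD8 control replicate C, and the differences were -0.014 ± 0.14 in CD8 cells (adjusted p = 0.969) and 0.037 ± 0.14 in CD4 cells (adjusted p = 0.891).

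The next comparisons set CD8 against CD4 cells. In the controls CD8 cells had less Bcl2, Mcl1 and Bcl2l11 than CD4 cells and more Bid and Pmaip1. Bcl2 was lower by 1.59-fold (-0.66 ± 0.10, adjusted p = 0.000280), Mcl1 by 1.54-fold (-0.63 ± 0.08, adjusted p = 0.000101) and Bcl2l11 by 1.45-fold (-0.53 ± 0.13, adjusted p = 0.0102). Bid was higher by 1.90-fold (0.92 ± 0.10, adjusted p = 3.3e-05) and Pmaip1 by 1.45-fold (0.54 ± 0.09, adjusted p = 0.00110). Thus 5 of the 9 genes passed between the controls, where 20.9% of all genes did (12.1% higher and 8.76% lower), and the arrays of 6 did not overlap (33.7% of all genes). Bak1 was lower in CD8 controls by 0.31 ± 0.11 without passing (adjusted p = 0.0673), though its arrays did not overlap, and it passed with a filter on dim genes (adjusted p = 0.0261 to 0.0266 there and with trended robust moderation). For Bcl2l1 the control difference was -0.058 ± 0.11 (95% interval -0.30 to 0.18), for Bbc3 0.11 ± 0.14 and for Bmf 0.19 ± 0.14.

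Between the Foxp3-positive groups no member passed in limma, where 4.71% of all genes did. At an unadjusted p under 0.05 the count was 3 of 9, beside 16.5% of all genes, namely Bcl2l11, Bak1 and Pmaip1, and the arrays of 4 did not overlap (22.7% of all genes), these and Bcl2l1. These 3 were higher in CD8 than in CD4 Foxp3-positive cells, by 0.42 ± 0.13 (adjusted p = 0.0997), 0.30 ± 0.11 (adjusted p = 0.180) and 0.32 ± 0.09 (adjusted p = 0.0842). Bcl2l11 and Pmaip1 passed with a filter on dim genes and with trended robust moderation, and Pmaip1 with array weights (adjusted p = 0.0295 to 0.0496). For Bcl2 the difference was -0.11 ± 0.10 (95% interval -0.32 to 0.098), for Mcl1 -0.079 ± 0.08 (95% interval -0.25 to 0.093) and for Bid 0.16 ± 0.10 (95% interval -0.058 to 0.38). Those intervals do not reach the differences of Bcl2, Mcl1 and Bid between the controls.

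**Figure D3:**
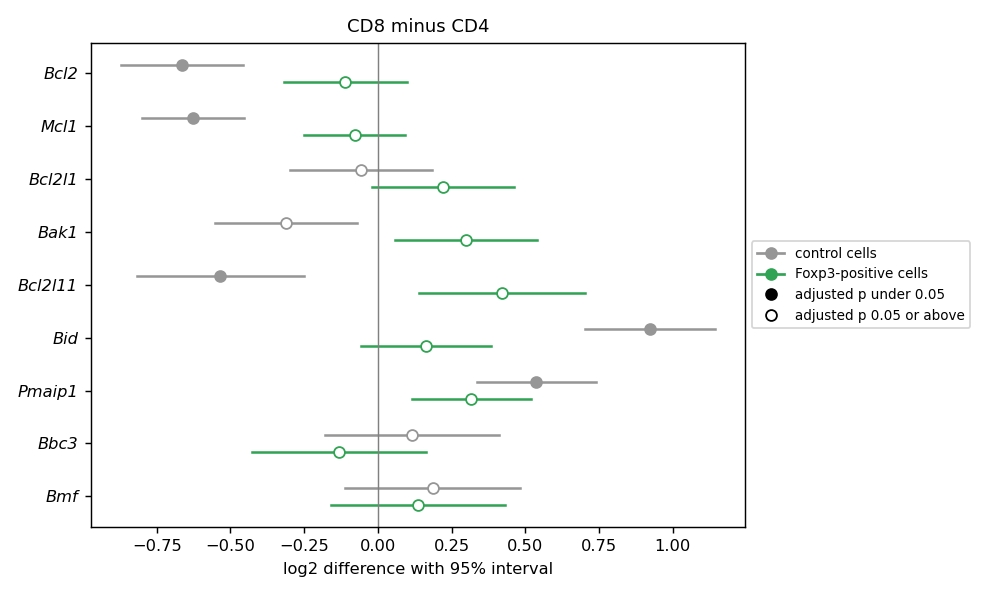
Log2 difference, CD8 minus CD4 (horizontal axis), for the 9 genes in control and in Foxp3-positive cells; lines are 95% intervals of the limma model and filled points passed the adjusted threshold of 0.05. The controls hold 5 filled points (Bcl2, Mcl1, Bcl2l11, Bid and Pmaip1) and the Foxp3-positive cells none.

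Whether the lineages differed in the Foxp3-positive effect was tested by the interaction, the CD8 effect minus the CD4 effect, which is at the same time the change in the CD8 to CD4 difference. It passed for 5 of the 9 genes, beside 13.5% of all genes (6.01% higher and 7.48% lower). Bcl2l11 had an interaction of 0.96 ± 0.18 (adjusted p = 0.00420), Bcl2 of 0.55 ± 0.14 (adjusted p = 0.0168), Mcl1 of 0.55 ± 0.11 (adjusted p = 0.00605) and Bak1 of 0.61 ± 0.16 (adjusted p = 0.0213). For Bid it was -0.76 ± 0.14 (adjusted p = 0.00377). The survival genes Bcl2 and Mcl1 and the death genes Bcl2l11 and Bak1 were thus higher, relative to control, in CD8 than in CD4 Foxp3-positive cells, and Bid was lower. In the dimmer clusters the interaction was 0.85 for Bcl2 (adjusted p = 0.00589) and 0.48 for Mcl1, which did not pass (adjusted p = 0.120). The Bak1 interaction was lost without CD8 Foxp3-positive replicate B or C, CD4 control replicate B or CD4 Foxp3-positive replicate B (adjusted p = 0.0513 to 0.0536). For Bcl2l1 (0.28 ± 0.16, 95% interval -0.061 to 0.62), Pmaip1 (-0.22 ± 0.13, 95% interval -0.51 to 0.065), Bbc3 and Bmf the interaction did not pass.

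Other genes of the apoptosis pathway were taken from 5 lists. Of 12 other BCL2 family genes measured, none passed in limma in CD8 cells (20% of all genes did), while 1 rose and 4 fell in CD4 cells (41.7%, beside 22.5% of all genes). At an unadjusted p under 0.05 the CD8 count was 2, beside 29.9% of all genes. After adjustment 1 gene passed as higher with the replicate block. With a filter on dim genes 1 passed as lower, namely Bcl2a1a. Bcl2a1a encodes the survival protein A1, which NF-κB induces. Its cluster had a CD4 control level of 6.87 ± 0.22 and a CD4 Foxp3-positive level of 6.26 ± 0.15 and fell 1.52-fold (adjusted p = 0.00175). In CD8 cells it differed by -0.29 ± 0.12 (adjusted p = 0.107), and near-identical copies of the gene make its value uncertain. The 2 other A1 clusters, which stayed out of the counts because each has several symbols, fell in both lineages. The cluster of Bcl2a1b and Bcl2a1a differed by -0.52 in CD8 cells and -1.04 in CD4 cells (limma adjusted p = 0.0198 and 0.000139 over all clusters). The cluster of Bcl2a1d, Bcl2a1a and Bcl2a1b differed by -0.52 and -0.89 (adjusted p = 0.0115 and 0.000214). Bcl2l14 and Bnip3, a hypoxia-induced mitochondrial protein gene, also fell in CD4 cells, by 0.62 and 0.60 on the log2 scale. Both calls were lost when CD4 control replicate C was left out and when CD4 Foxp3-positive replicate B was, that of Bnip3 also without CD4 Foxp3-positive replicate A and that of Bcl2l14 with only the CD4 arrays in the model (adjusted p = 0.0509 to 0.0616). The count of 4 became 2 in the absence of either array that ended both calls, or with a filter on dim genes. The other gene that fell was Bcl2l10 (-0.45 ± 0.12), at CD4 levels of 4.39 in controls and 3.93 with Foxp3, well below the median gene and in a range where no background level was available. The one that rose was Bcl2l13 (0.47 ± 0.08), and both lie outside the naming rule. Bik, the brightest that passed in neither lineage, differed by -0.20 and -0.19.

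Downstream of the mitochondrion, 4 of 16 genes of the apoptosome, the caspases and their inhibitors rose and 4 fell in CD8 cells, and 3 rose and 3 fell in CD4 cells. That is 50% and 37.5% of the list, beside 20% and 22.5% of all genes, with median changes of 0.0063 and 0.0093. Apaf1, the scaffold that activates caspase 9, fell in both lineages, from 9.01 ± 0.13 to 8.56 ± 0.08 in CD8 cells (adjusted p = 0.0115) and from 9.60 ± 0.07 to 8.48 ± 0.20 in CD4 cells (adjusted p = 8.21e-06). The CD8 fall of Apaf1 was lost without CD8 Foxp3-positive replicate C (adjusted p = 0.0514), which also took the count of CD8 falls from 4 to 2. Its fall was 0.67 ± 0.16 larger in CD4 cells on the log2 scale (interaction adjusted p = 0.0138). Diablo, whose product frees caspases from their inhibitors, rose in both, by 0.81 ± 0.15 in CD8 cells and 1.19 ± 0.15 in CD4 cells (adjusted p = 0.00132 and 5.12e-05). The executioner caspase gene Casp6 moved in opposite directions. It rose from 8.68 ± 0.15 to 9.41 ± 0.07 in CD8 cells (adjusted p = 0.00604) and fell from 10.49 ± 0.39 to 9.18 ± 0.15 in CD4 cells (adjusted p = 5.89e-05), with an interaction of 2.04 ± 0.23 (adjusted p = 0.000105). Birc6 passed in neither (0.028 and -0.17).

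In the death receptor list 3 of 14 genes rose and 1 fell in CD8 cells, and 2 rose and 5 fell in CD4 cells (medians 0.11 and -0.089). That is 28.6% and 50% of the list, beside 20% and 22.5% of all genes. Tnfsf10, which encodes the death ligand TRAIL, rose from 6.83 ± 0.14 to 9.12 ± 0.09 in CD8 cells and from 7.18 ± 0.17 to 9.55 ± 0.10 in CD4 cells, 4.92-fold and 5.15-fold (adjusted p = 1.82e-08 and 8.18e-09). Fasl, the ligand of the Fas death receptor, fell 2.45-fold in CD4 cells, from 8.77 ± 0.28 to 7.47 ± 0.30 (adjusted p = 7.5e-05). In CD8 cells Fasl differed by 0.35 ± 0.17 (adjusted p = 0.184), and the interaction passed (1.64 ± 0.23, adjusted p = 0.000573). Mlkl, the executor of necroptosis, fell 1.89-fold in CD8 cells (adjusted p = 0.000945) and 6.65-fold in CD4 cells (adjusted p = 6.11e-08), with an interaction of 1.81 ± 0.22 (adjusted p = 0.000190). Casp8, which cleaves BID, differed by 0.19 ± 0.07 in CD8 cells (adjusted p = 0.105) and by 0.17 ± 0.07 in CD4 cells (adjusted p = 0.130), and passed in both with a filter on dim genes or with trended robust moderation (adjusted p = 0.0115 to 0.0463). With that filter the count of rises in CD4 cells was 4.

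The p53 list includes genes that p53 switches on. Of 14 measured, 4 rose and 5 fell in CD8 cells and 4 rose and 7 fell in CD4 cells (medians -0.23 and -0.18). That is 64.3% and 78.6% of the list, beside 20% and 22.5% of all genes. Trp53inp1, which helps p53 and autophagy, rose 3.39-fold and 3.48-fold (adjusted p = 7.89e-06 and 4.66e-06), and the membrane protein gene Perp 3.12-fold and 1.67-fold (adjusted p = 8.67e-07 and 0.000634). The rise of Perp was larger in CD8 cells by 0.90 ± 0.17 (interaction adjusted p = 0.00402). Cdkn1a, the cell cycle inhibitor p21, fell 2.17-fold and 2.73-fold (adjusted p = 4.36e-06 and 3.09e-07). Targets of p53 in the list thus moved both ways in both lineages. Tigar passed in neither (-0.21 and -0.064). The count of 5 falls in CD8 cells was 3 with only the CD8 arrays in the model.

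Among regulators and partners of the family proteins, 3 of 21 rose and 3 fell in CD8 cells, and 3 rose and 4 fell in CD4 cells (medians -0.033 and -0.025). The shares were 28.6% and 33.3%, again beside 20% and 22.5% of all genes. Foxo1 encodes a transcription factor known to act on Bcl2l11. It rose in both lineages, by 0.73 ± 0.11 in CD8 cells (adjusted p = 0.000419) and by 0.88 ± 0.11 in CD4 cells (adjusted p = 7.23e-05). Pim2, a survival kinase that inactivates BAD, fell 2.33-fold and 2.35-fold (adjusted p = 0.000329 and 0.000249). Itpr2, a calcium channel of the endoplasmic reticulum that BCL2 proteins bind, rose 2.21-fold in CD8 cells (adjusted p = 0.000140). In CD4 cells Itpr2 differed by -0.060 ± 0.15 (adjusted p = 0.837), and the interaction was 1.21 ± 0.22 (adjusted p = 0.00277). Pim1 passed in neither (0.061 and -0.029), and its differences changed sign when single arrays were left out, in CD8 cells with array weights and in CD4 cells with arrays centred on their medians. The count of rises in CD4 cells was 1 without CD4 control replicate B, and that of falls 2 without CD4 Foxp3-positive replicate A.

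**Figure D4:**
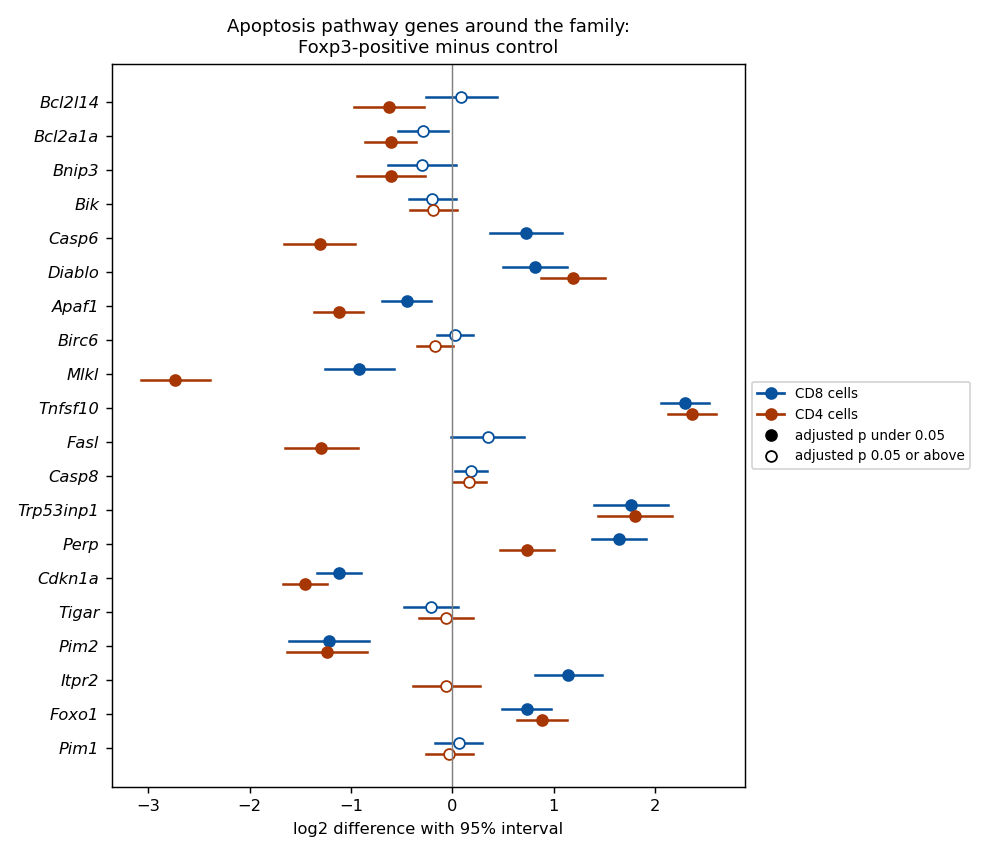
Log2 difference, Foxp3-positive minus control (horizontal axis), for the 20 named genes of the 5 pathway lists in CD8 and CD4 cells; lines are 95% intervals of the limma model and filled points passed the adjusted threshold of 0.05. Tnfsf10 lies at 2.30 and 2.37, Mlkl at -0.92 and -2.73, and Casp6 on opposite sides of 0.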

How the data were processed

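The 12 arrays measured biotin-labelled cDNA from total RNA of sorted T cells, per the labels' protocols. The authors deposited log2 expression values per transcript cluster, for which the submitters' processing notes name Affymetrix Expression Console and RMA. Their versions and the genome build were not given in the sources used here. RMA equalises the arrays' distributions, so a change in total RNA per cell would not show. Of 34365 clusters, 23521 had 1 symbol in GEO's platform annotation, 1814 several and 9030 none. The brightest cluster stood for each of 22180 genes, and no gene was filtered for a low level. The 4 group means of all 12 arrays were fitted with limma 3.58.1 in R 4.3.3 (lmFit, eBayes, 8 residual degrees of freedom), and 5 contrasts were tested two-sided. The fit was tested on simulated data. No batch is given in the labels, and the number of arrays limits the precision. The members and gene lists were chosen with earlier results of these data known. Named genes are all members, the 3 largest changes of each list past the threshold in either Foxp3-positive comparison and its brightest gene that passed in neither; for members whose group means spanned at least 1, the 3 nearest genes. Genes named because a count was 5 or fewer lie outside that rule. Alternatives covered a filter at the median of all genes' means, trended robust moderation, the arrays fitted, a replicate block, the mean of a gene's clusters, median centring, array weights and each array left out.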

Additional observations from a re-analysis of the deposited data

Results flagged for a closer look

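The Foxp3-positive effect differed between CD8 and CD4 cells, by the interaction term of the limma model, for 5 of the 9 measured genes, beside 13.5% of all genes. Bcl2l11 had the largest such difference (CD8 effect minus CD4 effect 0.96, adjusted p = 0.00420), with 0.36 in CD8 and -0.60 in CD4 cells. Bid had -0.76 (adjusted p = 0.00377), with -0.69 in CD8 and 0.072 in CD4 cells. Bak1 had 0.61 (adjusted p = 0.0213), with -0.19 in CD8 and -0.80 in CD4 cells, and was lost without CD8 Foxp3-positive replicate B or C, CD4 control replicate B or CD4 Foxp3-positive replicate B (adjusted p = 0.0513 to 0.0536). Bcl2 had 0.55 (adjusted p = 0.0168), with 0.34 in CD8 and -0.21 in CD4 cells. Mcl1 had 0.55 (adjusted p = 0.00605), with 0.45 in CD8 and -0.09 in CD4 cells.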

How the results depend on the processing

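Of 846 recomputed member differences (45 differences under 18 or 19 alternatives each), 808 kept sign and side of the threshold, 9 lost it, 16 gained it and 13 changed sign, none of them past the threshold in the first place. Between the Foxp3-positive groups the count of members that passed was 2 with the filter on dim genes, 2 with trended robust moderation and 1 with array weights, against 0; the construction of the filter (fewer genes tested) bears on the first, and the cause of the others was not tested. The CD8 count was 7 with that filter, 7 with array weights, 6 with trended robust moderation and 4 with only the CD8 arrays, against 5. In the CD4 comparison it was 5 with trended robust moderation or with all clusters averaged, against 4. Between controls it was 6 with the filter or with trended robust moderation, against 5. With each array left out in turn, the counts were 4 to 5 in the CD8 comparison and for the interaction, 4 in the CD4 comparison, 5 between controls and 0 between Foxp3-positive groups. The labels do not say whether the letters A to C pair the samples, and the arrays were treated as unpaired: same-lettered arrays of different groups had r = -0.10 to 0.14 between their deviations, over 0.1 in 2 of 18 pairs, and 9 of 18 correlated best with their own letter, the 3 of CD8 control with CD8 Foxp3-positive among them (0.054 to 0.14). With the replicate block 5, 4, 5, 0 and 5 members passed in the CD8, CD4, interaction, Foxp3-positive and control comparisons, with 0 of 45 calls changed, and 4359 genes passed in CD8 cells against 4430. The sign changes with array weights were Bmf at 0.079 in CD8 cells and 0.038 for the interaction and Pim1 at -0.0044 in CD8 cells; with all clusters averaged, Bcl2 at 0.0024 between Foxp3-positive groups; with median centring, Pim1 at 0.013 in CD4 cells. With single arrays left out Bmf ran from -0.12 to 0.17 in CD8 cells, from -0.0074 to 0.085 in CD4 cells and from -0.16 to 0.13 for the interaction, Bid from -0.0037 to 0.12 in CD4 cells, Bbc3 from -0.25 to 0.024 between Foxp3-positive groups and Bcl2l1 from -0.14 to 0.040 between controls. Of the list genes Birc6 ran from -0.0095 to 0.049 and Pim1 from -0.043 to 0.16 in CD8 cells, and Tigar from -0.12 to 0.039, Itpr2 from -0.12 to 0.012 and Pim1 from -0.074 to 0.0096 in CD4 cells; these alternatives for list genes were added after the data were seen. The cause of the sign changes was not tested. No background signal was available. Values near or below 5.60, as for Bbc3, Bmf, Bcl2l10 and Bcl2l14, may thus lie close to what the arrays cannot resolve.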

Other observations

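Between the controls, Bcl2l14 (-1.06 ± 0.16) and Bcl2l2 (-0.48 ± 0.11), which encodes the survival protein BCL-W, were lower and Bcl2l13 (0.67 ± 0.08) higher in CD8 than in CD4 cells, and the other 9 of 12 further family genes did not pass. That is 25% called, beside 20.9% of all genes. These names were chosen after their values were seen.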
